A study of Homo sapiens with 6 samples.

Results

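The complement, coagulation and fibrinolysis genes described here are 50 genes of blood plasma proteins and of their cell-surface receptors and regulators, chosen by gene symbol in the counts table. All 50 were found among the 20332 genes of the table. RNA was taken from Huh-7 cells, an established human hepatocellular carcinoma line, in 2 groups of 3 samples. The RAC3 group stably overexpressed RAC3, a small GTPase, after lentiviral transduction, and the NC group was its negative control, with the genotype label WT. Whether the stable cells were 1 clone or a pool, and what the control vector carried, is not given in the sources used here. The genotype labels of RAC3 samples 2 and 3 name other genes (RAC4 and RAC5), while their titles give RAC3, and the titles were followed. RAC3 itself had 35.6, 31.4 and 32.8 normalized CPM (library-scaled counts) in the NC samples and 232.6, 239.6 and 225.4 in the RAC3 samples, so every RAC3 library lay far above every NC library. The study speaks of independent RNA samples but not of separate cultures, so the p-values measure the spread between these samples, which may be technical.

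Most plasma proteins of these cascades are made and secreted by hepatocytes. Complement begins with recognition proteins and proteases of the classical and lectin pathways, passes through the central component C3, and ends with terminal components that form a pore in the target membrane, while soluble and membrane-bound regulators keep it in check. In coagulation, tissue factor and factor VII activate factor X, which converts prothrombin to thrombin, and thrombin turns fibrinogen into fibrin. Anticoagulants limit thrombin, and plasmin dissolves fibrin. Several factors (prothrombin, factors VII, IX and X, and proteins C, S and Z) need a vitamin K-dependent modification of their glutamate residues.

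Sequences at the starts of FGB, FGA, F7 and F10 are shown because these genes lie in groups of neighbours on chromosomes 4 and 13, in which FGB, FGA, FGG, F7 and F10 changed. The fibrinogen genes FGB, FGA and FGG lie on chromosome 4 within a stretch from 154562956 to 154612967 (GENCODE release 29, GRCh38). F7 and F10 lie on chromosome 13 with 2.1 kb between them, and PROZ follows F10 after 9.1 kb. RefSeq promoter windows (GRCh38.p14, 250 bases before the start) were matched by symbol for 41 of the 50 members. The part of 4 windows outside the annotated gene is shown 5′ to 3′ on the strand of the gene, with capitals for a match to a searched motif on either strand. The windows are FGB at chr4:154562730-154562955 (plus strand), FGA at chr4:154590767-154590992 (minus strand), F7 at chr13:113105541-113105787 (plus strand) and F10 at chr13:113122549-113122798 (plus strand).
FGB: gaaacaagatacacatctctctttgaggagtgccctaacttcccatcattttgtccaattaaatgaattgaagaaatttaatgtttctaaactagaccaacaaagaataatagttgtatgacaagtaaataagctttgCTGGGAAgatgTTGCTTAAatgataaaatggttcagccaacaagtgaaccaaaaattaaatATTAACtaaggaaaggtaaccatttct
FGA: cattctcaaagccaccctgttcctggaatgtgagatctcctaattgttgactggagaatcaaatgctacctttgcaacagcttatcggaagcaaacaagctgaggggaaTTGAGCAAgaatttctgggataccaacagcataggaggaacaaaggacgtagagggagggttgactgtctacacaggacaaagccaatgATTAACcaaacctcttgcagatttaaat
F7: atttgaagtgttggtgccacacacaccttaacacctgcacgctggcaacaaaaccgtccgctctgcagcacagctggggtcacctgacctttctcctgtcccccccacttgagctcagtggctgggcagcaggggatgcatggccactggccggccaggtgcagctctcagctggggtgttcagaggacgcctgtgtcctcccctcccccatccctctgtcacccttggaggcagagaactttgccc
F10: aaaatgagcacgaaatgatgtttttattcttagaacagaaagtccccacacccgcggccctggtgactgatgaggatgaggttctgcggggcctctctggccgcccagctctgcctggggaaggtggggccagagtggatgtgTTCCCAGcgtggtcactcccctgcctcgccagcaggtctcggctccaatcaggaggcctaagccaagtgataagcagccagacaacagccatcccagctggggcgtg

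The 4 motifs searched were those of liver factors and of the acute phase response: GTTAAT for HNF1, CAAAGTCCA for HNF4, TTGCNNAA for C/EBP and CTGGGAA for the interleukin-6 response element. Distances were counted back from the RefSeq start and not from the end of the printed sequence. For FGB, FGA and F7 the RefSeq start lies inside the annotated gene, so the printed sequence stops short of it. The FGB window held the HNF1 letters 51 to 46 bases before the RefSeq start. It held the C/EBP letters at 101 to 94 and the interleukin-6 letters at 112 to 106. The FGA window held the HNF1 letters at nearly the same distance, 52 to 47 bases, and the C/EBP letters at 141 to 134. The printed bases had 31.4% GC in FGB and 43.8% in FGA. Those of F7 and F10 had 61.5% and 59.2% GC, and held no match and 1 match (interleukin-6, 107 to 101 bases before the start). The printed matches did not overlap each other. Over all members, 7 of 41 windows (17.1%) held the HNF1 letters, against 6.26% of 27305 windows of all genes. The C/EBP letters were in 10 windows (24.4%, against 9.12%), the interleukin-6 letters in 6 (14.6%, against 9.33%) and the HNF4 letters in 1, that of PROZ (2.44%, against 0.289%). These matches are a description of letters and not of bound sites.

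Counts on genes were between 13855762 and 18199888 per sample, and 38 of the 50 members passed the filter on low counts among 12941 genes tested. The 9 hepatocyte markers were all detected and together had 5045 to 5125 normalized CPM in NC and 4500 to 4971 in RAC3, with APOB and AFP higher and TF, TTR and AHSG lower. Among endothelial markers TEK, and among macrophage markers CD163, were at 0 counts in all 6 samples. The summed endothelial list stood at 2.53 to 3.15 and 2.70 to 3.76 normalized CPM, and the macrophage list at 1.73 to 2.73 and 2.06 to 4.13. The fibroblast and stellate list (5 genes) summed to 86.5 to 86.9 in NC and 95.4 to 100.3 in RAC3, with COL1A2 higher and COL1A1 lower. The cholangiocyte list (3 genes) summed to 779.7 to 802 in NC and 600.1 to 669 in RAC3, with KRT19 and SOX9 lower. The part of these shifts in the members' values was not tested. In bulk RNA, fewer cells making a transcript and less transcript per cell cannot be told apart.

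The members differed widely in level. CLU, which encodes the complement inhibitor and chaperone clusterin, was the highest in the deposited FPKM at 1464 ± 25.4 in NC (SD, n = 3). These values imply a length of 0.75 to 0.792 kb for CLU, where the annotated transcript has 3080 bases, and in normalized CPM, which takes no length into account, C3 was higher than CLU (1507 ± 102.5 and 1138 ± 15.9 in NC). FGA, C3, FGB and FGG followed with 313.5 ± 2.92, 303.1 ± 21.9, 246 ± 6.70 and 156 ± 10.8 FPKM, and VTN with 109 ± 0.763. The NC samples of FGA and C3 overlapped. At the other end, F9 (factor IX), PLG (plasminogen) and THBD (thrombomodulin) had 0 counts in all 6 samples, where up to 3 counts, 0.167 to 0.215 normalized CPM per sample, could have gone unseen by counting error alone. The other 9 members that were not tested, C4BPB, MASP2, KLKB1, PLAT, C9, SERPINC1, PLAU, C6 and F13B, had a mean of at most 9.33 counts per sample. SERPINC1 encodes antithrombin, the main thrombin inhibitor of plasma, and had between 0 and 5 counts. Normal hepatocytes make it and plasminogen in quantity.

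**Figure D1:**
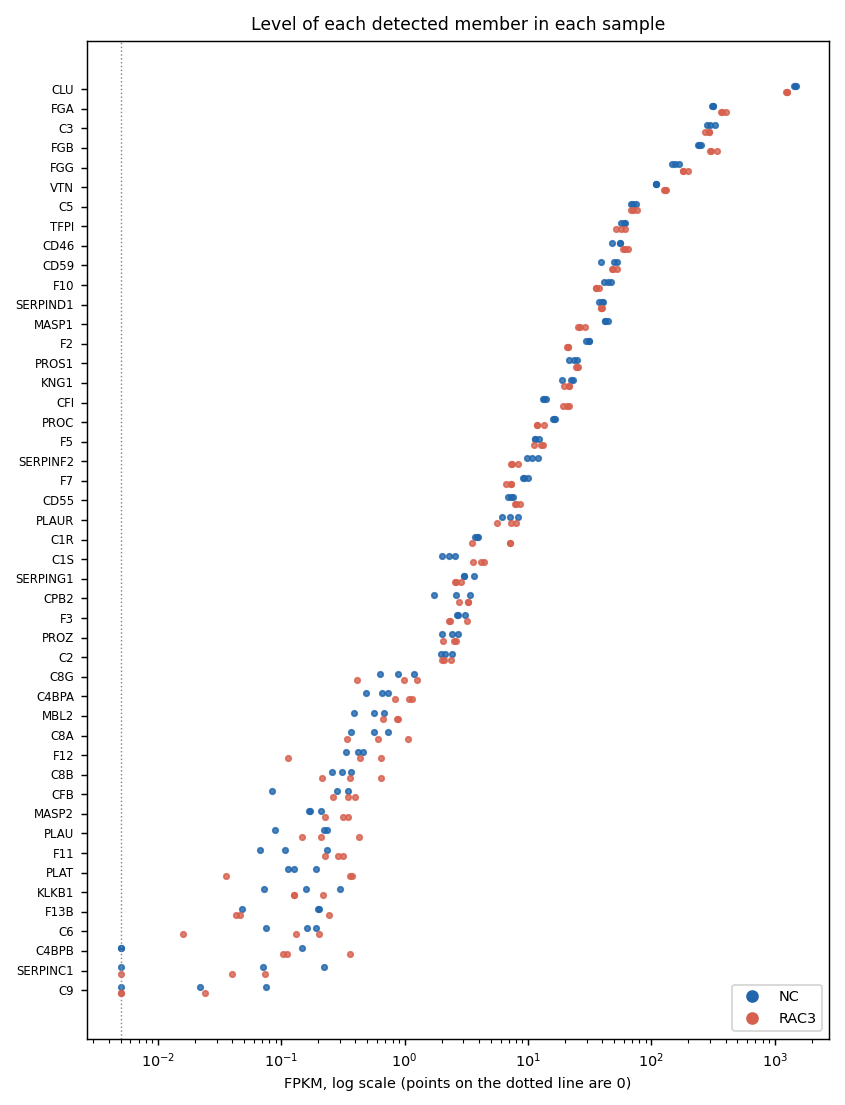
FPKM on a log scale for the 47 members with at least 1 count, each point 1 sample, NC in blue and RAC3 in orange, sorted by mean level. CLU stands highest on this scale, the fibrinogen chains, C3 and VTN follow, and the members that were not tested lie near the bottom of the plot, with F11, which was tested, among them.

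With RAC3 overexpression, some members rose and some fell, while 23 of the 38 tested did neither. The fibrinogen chains, the proteases C1S and C1R, the complement inactivator CFI and vitronectin rose, while the lectin pathway protease MASP1, prothrombin, factors VII and X, protein C, antiplasmin, clusterin and C3 fell. Here and below, rose and fell are used of genes with an adjusted p below 0.05 (edgeR quasi-likelihood test, Benjamini-Hochberg adjustment over all genes tested). Of the 38 members tested, 15 passed (39.5%), against 28.5% of all genes. Of these 7 were higher (background 13.3%) and 8 were lower (background 15.3%). At the thresholds of the study, a fold change above 1.5 and an unadjusted p below 0.05, 3 members were differentially expressed (7.89%), against 4.68% of all genes. These were C1S, which was higher (background 1.68%), and F2 and MASP1, which were lower (background 2.99%). The groups did not overlap for 18 members (47.4%, background 42.5%), 8 higher (background 20.9%) and 10 lower (background 21.6%). The median log2 fold change of the members was -0.0057, against 0.0036 for all genes tested, and the median size of the change was 0.19, against 0.16. Together the members took 0.565 ± 0.00523% of the counts in NC and 0.574 ± 0.0192% in RAC3 (mean ± SD of 3 samples each, p = 0.6 in a two-sided exact permutation test).

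DESeq2 and limma-voom called the same 15 members at an adjusted p below 0.05. At the study's thresholds, the members counted changed as samples were left out or the scaling changed. Without RAC3 replicate 1, 3 members were higher (C1R in addition, and PLAT, which did not pass the filter on low counts with all 6 samples and had 1 count in the sample left out), and without NC replicate 3, 2 were higher (MBL2 in addition) and 3 lower (SERPINF2 in addition). Without RAC3 replicate 3, 4 were lower, with F7 and SERPINF2 in addition. With scaling by library size alone, CFI was in addition higher, and F2 was no longer past the fold threshold.

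**Figure D2:**
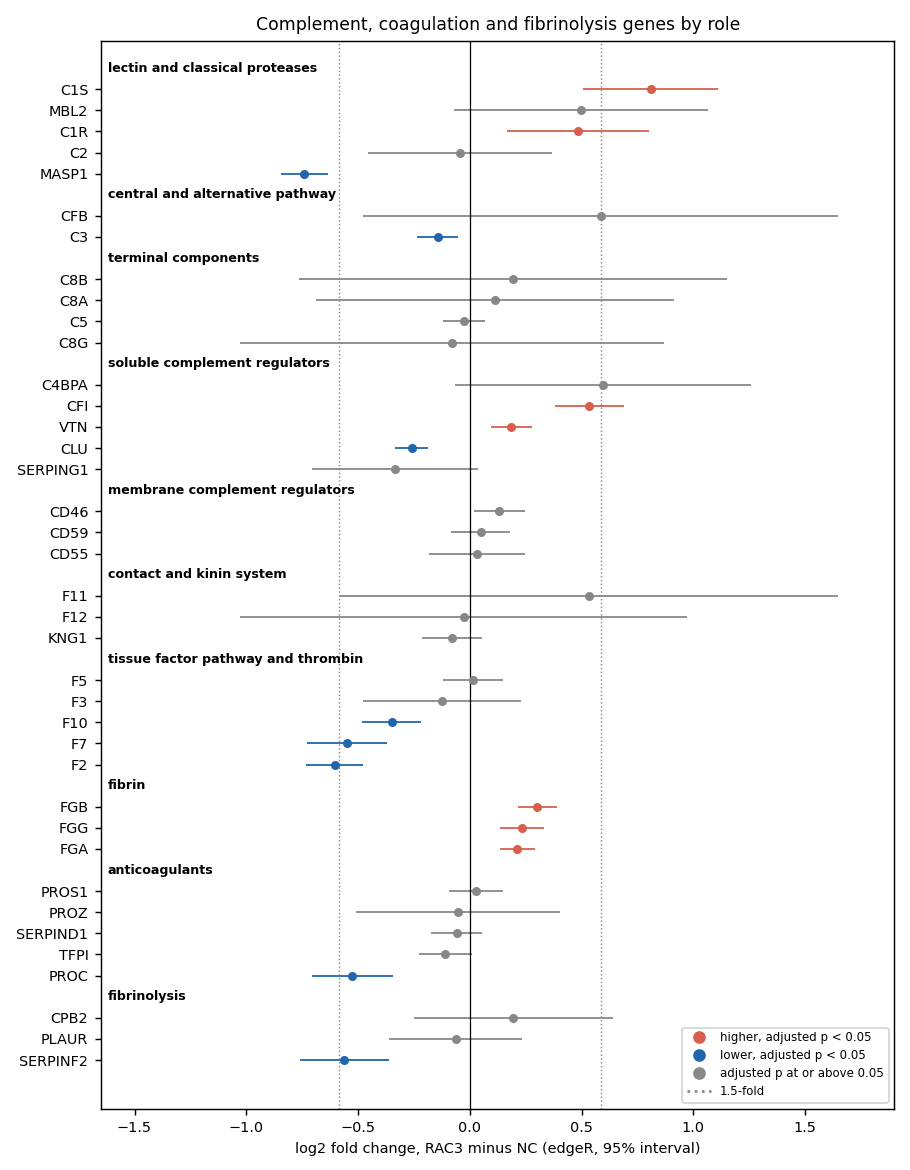
Fitted log2 fold change of the 38 members tested, RAC3 minus NC, with 95% intervals (edgeR), by role. Orange marks 7 members that were higher and blue 8 that were lower at an adjusted p below 0.05, and the dotted lines mark a 1.5-fold change. All 3 fibrinogen chains lie to the right of 0, and F2, F7, F10 and PROC to the left.

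Among the 6 recognition proteins and proteases of the lectin and classical pathways, 5 were tested, and 2 rose and 1 fell (background 13.3% higher and 15.3% lower). MASP1 (ENSG00000127241), a serine protease of the lectin pathway whose gene also encodes other splice forms counted with it, showed the smallest p-value of all members. It had 169.8, 158 and 160.2 normalized CPM in the NC samples and 101, 93.9 and 97.0 in the RAC3 samples. Every RAC3 sample lay far below every NC sample. The NC mean was 163 ± 6.15 and the RAC3 mean 97.4 ± 3.73 (SD, n = 3 each), which is -0.74 on the log2 scale (standard error, SE, 0.0509, adjusted p = 8.46e-09, edgeR with Benjamini-Hochberg adjustment), or -40.1%. The locus, chromosome 3 from 187217285 to 187292022 on the minus strand, is overlapped by an antisense gene, and the library kit does not mark strand, so reads of the 2 cannot be told apart.

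C1S and C1R encode the paired proteases of the C1 complex, which starts the classical pathway. Their genes are neighbours on chromosome 12, 9.2 kb apart on opposite strands. C1S had 6.09, 7.13 and 5.74 normalized CPM in NC and 12.2, 11.2 and 9.65 in RAC3, from 85 to 216 counts per sample. The groups were clearly apart, with a log2 fold change of 0.81 (SE 0.145, adjusted p = 3.66e-04, edgeR), or 1.75-fold. C1R had 6.38, 7.13 and 6.36 in NC and 7.65, 10.1 and 10.1 in RAC3. RAC3 sample 1 lay near the NC samples, and the log2 fold change was 0.48 (SE 0.152, adjusted p = 0.0220, edgeR). The call of C1R was lost when any of 4 samples was left out, with an adjusted p (edgeR) of 0.0551 without NC replicate 1, 0.0682 without NC replicate 3, 0.0869 without RAC3 replicate 2 and 0.0861 without RAC3 replicate 3. C1S overlaps EMG1 and LPCAT3, and C1R overlaps C1RL, and reads in stretches that both genes cover cannot be told apart.

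MBL2, the mannose-binding lectin that carries MASP1, had 1.43, 2.06 and 2.45 normalized CPM in NC and 3.10, 3.04 and 2.34 in RAC3, and the groups overlapped. Its log2 fold change was 0.50 with a 95% interval from -0.07 to 1.07 (adjusted p = 0.183, edgeR). C2, the protease partner of C4, stood at -0.04 (interval -0.45 to 0.37). MASP2, which like MASP1 binds MBL2, had 4 to 12 counts per sample and was not tested.

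C3, the central component of all 3 complement pathways, was among the best counted members. It had 1608, 1509 and 1403 normalized CPM in NC and 1383, 1319 and 1389 in RAC3. The highest RAC3 sample lay just below the lowest NC sample, and the log2 fold change was -0.14 (SE 0.0437, adjusted p = 0.0187, edgeR). This call was lost with library size scaling (-0.09, adjusted p = 0.120), with the GC trend removed (-0.03, adjusted p = 0.611), without NC replicate 1 (adjusted p = 0.0907), without NC replicate 2 (adjusted p = 0.0641) and without RAC3 replicate 2 (adjusted p = 0.0753), all from edgeR. CFB, the protease of the alternative pathway, had 3 to 15 counts per sample, and its log2 fold change of 0.59 had a 95% interval from -0.48 to 1.65.

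Of the 4 terminal components tested, 0 passed in edgeR, DESeq2 or limma-voom on the counts as deposited (background 28.5%), and 0 had an unadjusted p below 0.05. C5, which is cleaved to start pore formation, was well counted at 337 ± 8.11 normalized CPM in NC and 331 ± 19.4 in RAC3, and its log2 fold change of -0.03 had a 95% interval from -0.12 to 0.07. With the GC trend removed, C5 passed at -0.17 (adjusted p = 0.00175, edgeR). C8A, C8B and C8G, the 3 chains of component 8, had means of 11.7 to 17.2 counts per sample. At this depth their intervals were wide, from -1.03 to 1.15 over the 3 genes, and 0.81, the change of C1S, lay inside each of them. C6 and C9 had 0 to 12 counts.

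Of the 5 soluble regulators tested, 2 rose and 1 fell (background 13.3% and 15.3%), and none of the 5 had overlapping groups (background 42.5%). CFI, the protease that cleaves active fragments of C3 and C4, had 27.3, 27.9 and 26.7 normalized CPM in NC and 41.7, 39.7 and 37.0 in RAC3. The NC samples lay close together, and the lowest RAC3 sample was well above them. The log2 fold change was 0.54 (SE 0.0734, adjusted p = 2.65e-05, edgeR), or 1.45-fold. VTN, which encodes vitronectin, an adhesive plasma protein that blocks the terminal complex, had 181 ± 1.84 normalized CPM in NC and 206 ± 5.32 in RAC3 (SD, n = 3 each), with a log2 fold change of 0.19 (adjusted p = 0.00367, edgeR). VTN overlaps SARM1 among other genes, CFI overlaps another protein-coding gene and C3 overlaps GPR108, with the same limit as for C1S and C1R.

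CLU moved the other way. It had 1156, 1126 and 1133 normalized CPM in NC and 966, 945 and 942 in RAC3, with little spread in either group. The log2 fold change was -0.26 (SE 0.0352, adjusted p = 2.30e-05, edgeR). SERPING1, the inhibitor of C1R and C1S, had 5.73, 5.79 and 5.13 in NC and 4.05, 4.68 and 4.47 in RAC3. Although these did not overlap, the log2 fold change of -0.33 had an interval from -0.70 to 0.04 (adjusted p = 0.170, edgeR). C4BPA, the alpha chain of a regulator that binds C4 fragments, had 16, 23 and 22 counts in NC and 37, 26 and 32 in RAC3, and its log2 fold change of 0.60 gave an adjusted p of 0.172 (edgeR). The membrane regulators CD46, CD55 and CD59, which protect the cell itself, had log2 fold changes of 0.13, 0.03 and 0.05, and 0 passed. CD46 had the only unadjusted p below 0.05 (0.0259, edgeR across all genes) and an interval from 0.02 to 0.25, with an adjusted p of 0.0785, and that of CD59 was -0.08 to 0.18. CD46 passed with scaling by library size alone (0.19, adjusted p = 0.0154) and without RAC3 replicate 2 (0.17, adjusted p = 0.0380), and stood at -0.03 with the GC trend removed (adjusted p = 0.656), all from edgeR.

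In the tissue factor pathway, 3 of 5 genes tested fell and none rose (background 15.3% lower and 13.3% higher). F2 encodes prothrombin, the precursor of thrombin. It had 63.6, 59.3 and 63.1 normalized CPM in NC and 40.6, 40.7 and 41.0 in RAC3. The RAC3 samples were nearly equal and all lay below NC. The log2 fold change was -0.61 (SE 0.0615, adjusted p = 9.55e-07, edgeR), a level 1.52-fold higher in NC. The change came under 1.5-fold with scaling by library size alone (-0.55) and after removal of the GC trend (-0.47) or of the length trend (-0.56), and its adjusted p stayed below 0.05 in each (edgeR).

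F7, the protease that binds tissue factor, had 30.8, 28.4 and 28.3 normalized CPM in NC and 19.9, 18.5 and 21.6 in RAC3. F10, which forms the core of the prothrombin-cleaving complex, had 74.1, 69.7 and 64.7 in NC and 53.1, 56.9 and 53.3 in RAC3. Neither gene had overlapping groups. The log2 fold change was -0.55 for F7 (SE 0.0856, adjusted p = 9.95e-05, edgeR) and -0.35 for F10 (SE 0.0636, adjusted p = 4.26e-04, edgeR). With the GC trend removed, F7 stood at -0.42 and F10 at -0.20 (adjusted p = 0.0135, edgeR). F10 is overlapped by antisense genes and by a pseudogene on its own strand, with the same limit as for MASP1. The cofactor F5 was level at 88.8 ± 4.01 and 89.7 ± 8.39 normalized CPM, with a log2 fold change of 0.01 and an interval from -0.12 to 0.15. F3, which encodes tissue factor, stood at -0.13 with an interval from -0.48 to 0.23.

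The 3 fibrinogen chains all rose (background 13.3% higher). FGB (beta chain) had 489, 476 and 495 normalized CPM in NC and 633, 581 and 586 in RAC3. FGA (alpha chain) had 741, 720.3 and 731 in NC and 884, 825 and 833 in RAC3, and FGG (gamma chain) had 237.5, 245.5 and 255 in NC and 309, 279.5 and 279.8 in RAC3. RAC3 sample 1 was the highest for every chain, and no RAC3 sample came down to the NC range. The log2 fold changes were 0.30 for FGB (SE 0.0415, adjusted p = 2.62e-05), 0.21 for FGA (SE 0.0384, adjusted p = 3.89e-04) and 0.23 for FGG (SE 0.0476, adjusted p = 0.00113), all from edgeR. With the GC trend of each library removed, the changes were 0.18, 0.13 and 0.12 (largest adjusted p = 0.0215, edgeR). The chains share 1 stretch of chromosome 4, whose windows at FGB and FGA are printed above. Their share of all counts went from 0.143 ± 0.00221% in NC to 0.177 ± 0.00888% in RAC3 (mean ± SD of 3 samples each). A two-sided exact permutation test gave p = 0.1, which is the lowest value that 3 against 3 samples allow. F13B, the carrier chain of the enzyme that links fibrin strands, had 1 to 9 counts and was not tested.

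Of 5 anticoagulant genes tested, PROC passed (background 28.5%), and TFPI passed once the GC trend was removed. PROC encodes protein C, which inactivates the activated cofactors V and VIII. It had 25.0, 24.0 and 25.5 normalized CPM in NC and 18.2, 16.4 and 17.2 in RAC3. The groups were well apart, with a log2 fold change of -0.53 (SE 0.0871, adjusted p = 1.82e-04, edgeR). PROS1, whose protein is the cofactor of protein C, was level at 80.5 ± 5.67 and 82.2 ± 1.35, with an interval from -0.09 to 0.15. TFPI, the inhibitor of the tissue factor complex, had 101.9, 100.9 and 99.2 in NC and 99.1, 86.4 and 94.1 in RAC3, a log2 fold change of -0.11 (adjusted p = 0.156, edgeR). With the GC trend removed it was -0.31 (adjusted p = 1.61e-04, edgeR). SERPIND1 (heparin cofactor) stood at -0.06 and PROZ at -0.05, with intervals from -0.17 to 0.06 and from -0.51 to 0.40.

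In fibrinolysis, SERPINF2, which encodes antiplasmin, the direct inhibitor of plasmin, had 25.4, 27.6 and 22.8 normalized CPM in NC and 16.3, 16.6 and 18.4 in RAC3. All RAC3 samples lay below NC, and the log2 fold change was -0.56 (SE 0.0950, adjusted p = 2.23e-04, edgeR). CPB2, a carboxypeptidase that protects fibrin, stood at 0.19 (interval -0.25 to 0.64), and PLAUR, the urokinase receptor, at -0.06 (interval -0.36 to 0.23). The activators PLAT and PLAU had 1 to 18 and 3 to 14 counts. In the contact and kinin system, KNG1 (kininogen) was well counted and stood at -0.08 with an interval from -0.22 to 0.05, and at -0.19 with the GC trend removed (adjusted p = 0.0211, edgeR). F11 and F12 had means of 8.33 and 13.5 counts, and their intervals reached past 0.97 on the log2 scale.

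Read across roles, 4 of the 6 vitamin K-dependent genes tested fell (F2, F7, F10 and PROC; background 15.3% lower), PROS1 and PROZ did not pass, and F9 was at 0. PROZ, which lies next to F10, had an interval from -0.51 to 0.40, which holds the value of F10. Of the 5 cell-surface members tested (CD46, CD55, CD59, F3 and PLAUR), 0 passed in edgeR, DESeq2 or limma-voom (background 28.5%).

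**Figure D3:**
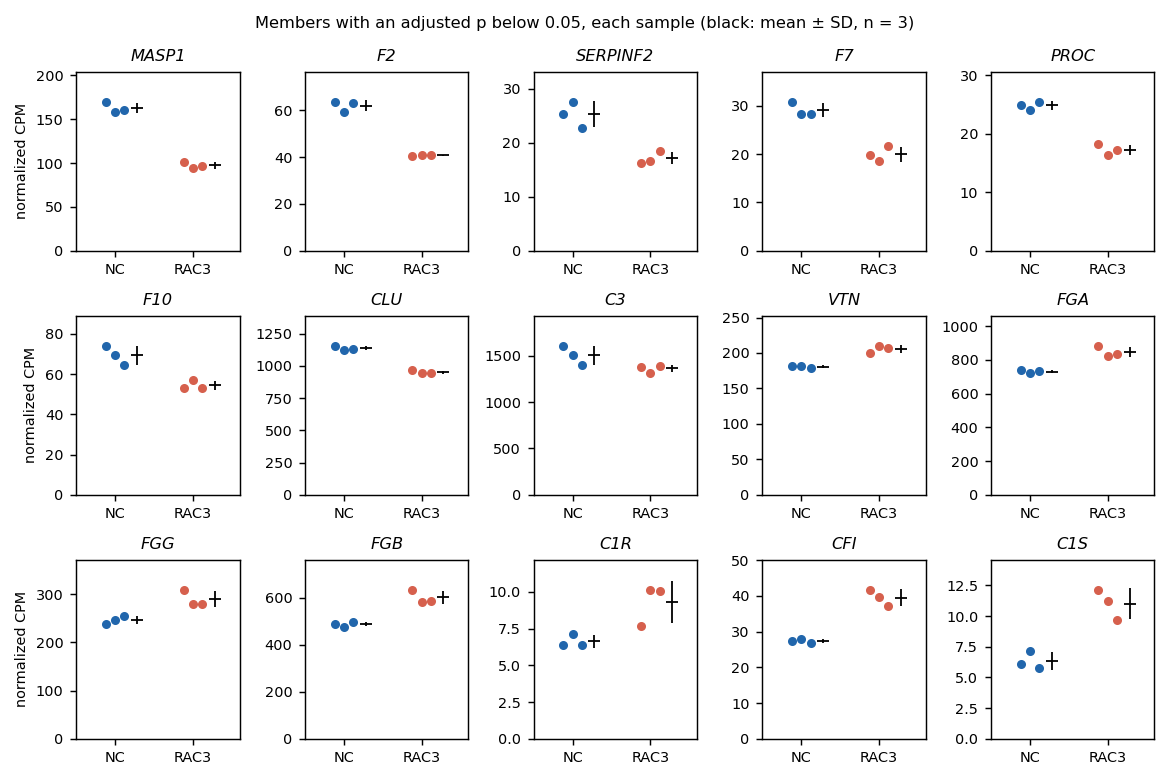
Normalized CPM of the 15 members with an adjusted p below 0.05, each point 1 sample, NC in blue and RAC3 in orange, from the largest decrease to the largest increase, with mean and SD (n = 3) in black and axes from 0. The groups do not overlap in any panel. MASP1 falls from a mean of 163 to 97.4 and CFI rises from 27.3 to 39.5.

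The base composition of the transcripts moved with these changes. Within each library, the deviation of genes from their mean over all samples was correlated with GC content, with a Spearman coefficient of 0.29 to 0.51 in the NC libraries and -0.54 to -0.24 in the RAC3 libraries. Over the 38 members, log2 fold change and GC content had a coefficient of -0.52, and over 12863 genes it was also -0.52. The genes share their libraries, so this is a description. The members that rose had a median GC content of 43.4%, those that fell 57.8%, and the others 45.5%, against 48.6% for all genes. With the trend of each library removed, MASP1 (-0.73), C1S (0.79), CLU (-0.22) and C1R (0.55) were little changed. PROC (-0.37), SERPINF2 (-0.39) and CFI (0.41) came closer to 0 on the log2 scale, as did F2, F7, F10 and the fibrinogen chains with the values given above. All of these still had an adjusted p below 0.05 (edgeR). VTN moved away from 0 to 0.30, C3 was lost, and TFPI, C5 and KNG1 fell in this fit with the values given above, so that 10 members were lower and 7 higher. Over all 12863 genes of this fit, 1396 were lower and 1270 higher at the same adjusted p.

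**Figure D4:**
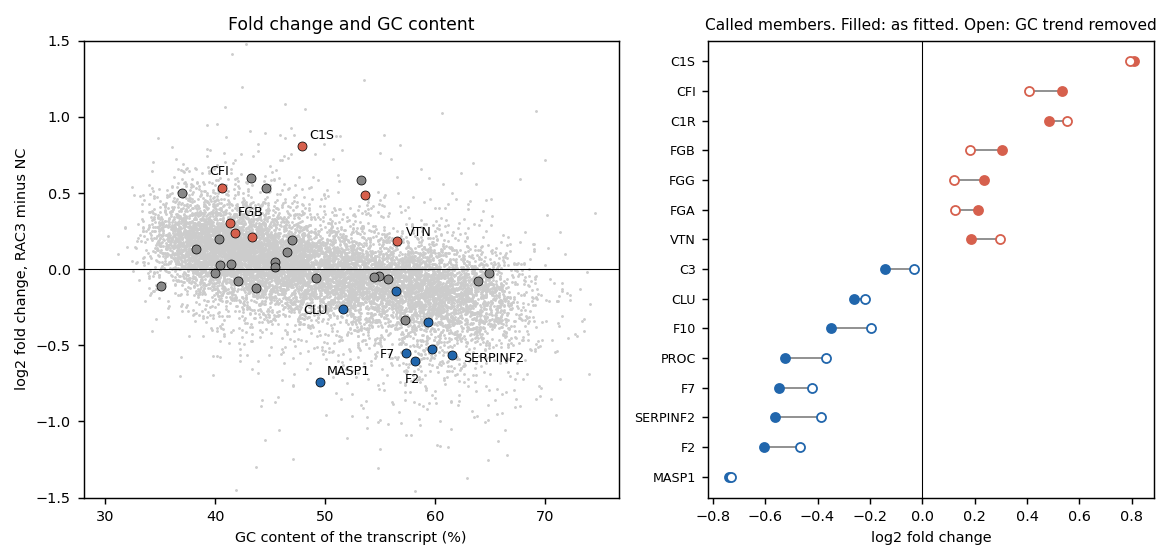
Left, log2 fold change against transcript GC content for genes with a mean of at least 50 counts (grey, vertical axis limited to 1.5 either way) and for the 38 members (orange higher, blue lower, dark grey not called). Right, the 15 called members as fitted (filled) and with the GC trend of each library removed (open). F2 moves from -0.61 to -0.47 and MASP1 from -0.74 to -0.73.

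Another 56 genes of the same pathways were counted beside the members. Of these, 25 were tested, 10 had 0 counts in all 6 samples, and 8 (32%) had an adjusted p below 0.05 against 28.5% of all genes, 5 higher and 3 lower. TFPI2, a relative of TFPI, had 24, 23 and 30 counts in NC and 105, 75 and 68 in RAC3, a log2 fold change of 1.63 (adjusted p = 4.1e-05, edgeR). VKORC1, which recycles vitamin K for the modification of F2, F7, F10 and PROC, was lower at -0.41 (adjusted p = 8.1e-05, edgeR), while GGCX, the carboxylase itself, did not pass and stood at -0.05 with an interval from -0.18 to 0.08. Other changes past an adjusted p of 0.05 (edgeR) were those of S100A10 (0.27), F2RL1 (0.29), LMAN1 (0.14) and COLEC12 (-0.47). At the study's thresholds 3 were higher (background 1.68%) and 1 was lower (background 2.99%). Together these were 16% of the 25 tested, against 4.68% of all genes. DESeq2 and limma-voom each gave 2 higher. C4B is among the 3, with overlapping groups of 0, 15 and 17 counts in NC and 41, 5 and 41 in RAC3 and an adjusted p of 0.105 (edgeR).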

How the data were processed

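RNA sequencing of 6 Huh-7 samples (3 RAC3, 3 NC) was used. The authors deposited 1 table of raw counts per gene and of FPKM values per sample. The submitters' processing notes name Bowtie2 2.2.8, HISAT2, StringTie 1.3.1 and DESeq2, and the genome build and annotation are not given in the sources used here. The deposited FPKM values were used only for levels, because the transcript lengths they imply differed between samples for some members. The counts were tested in R 4.3.3 with edgeR 4.0.16 (filterByExpr, TMM, quasi-likelihood F test, two-sided, no covariate), fitted on the whole table, with Benjamini-Hochberg adjustment over 12941 genes. The steps were tested on simulated data. The biological coefficient of variation was 0.0533. Rows without a symbol (617) stayed in the fit, and the authors' mean values per group were not used.

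Alternatives were DESeq2 1.42.0, limma-voom (limma 3.58.1), other scalings and filters, a replicate block, each sample left out, fold thresholds, and a lowess (span 0.3) of each library on GC content or length from GENCODE release 29. Groups followed the titles. Members, roles and lists were chosen with earlier results of these data known. Per-sample values were given for members with an adjusted p below 0.05 and a fold change above 1.25, up to 3 more per role by p, and the 5 with the highest level. VKORC1, GGCX, S100A10, F2RL1, LMAN1, COLEC12, C4A, C4B and the genes of the marker lists were named after their values were seen. Intervals and floors cover counting error or the spread between samples only. Some results are not reported here.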

Additional observations from a re-analysis of the deposited data

How the results depend on the processing

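The whole table was refitted under 16 alternatives, which gave 304 values for 19 genes (the 15 called members, RAC3 and 3 other pathway genes). None of these values changed direction, and 295 kept their side of the threshold. The 9 that lost it were those of C1R (4) and C3 (5) given above. With library size scaling, which moved the median of all genes to 0.06, 2 members were higher and 1 lower at the study's thresholds (1 and 2 otherwise) and the members' median was 0.051. All genes then split into 296 higher and 315 lower (218 and 387 otherwise). With at least 10 counts in every sample 2 members were higher, with C4BPA. With the GC or the length trend removed 1 was lower, and at a 2-fold threshold 0 were higher and 0 lower. Leaving out samples gave 1 to 3 higher, 2 to 4 lower and a median of -0.042 to 0.073. Among the other pathway genes, limma-voom gave 2 lower at the study's thresholds, GC removal 3 higher at adjusted p, and leaving out samples 1 to 2 and 3 to 5. Apart from the threshold itself, the cause was not tested. With a replicate block, the same 15 members were called (7 higher, 8 lower), and it changed no call among them. Same-numbered samples deviated together with correlations of -0.0873, -0.0455 and -0.0207, and the numbers were not taken as pairs. The 6 tested members with a mean of 17.2 counts or fewer (CFB, C8A, C8B, C8G, F11 and F12) had 95% intervals that included 0.81, the change of C1S.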

Other observations

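The near-identical genes C4A and C4B, which encode the C4 component between C1 and C3, had 16, 21 and 30 (C4A) and 0, 15 and 17 (C4B) counts in NC, and 6, 38 and 0 (C4A) and 41, 5 and 41 (C4B) in RAC3. Where C4A was low, C4B was high within the RAC3 group, and their sums were 16, 36 and 47 in NC and 47, 43 and 41 in RAC3. How reads that match both copies were counted is not given in the sources used here, so each gene alone is uncertain.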
